A study of Mus musculus with 3 samples.

Results

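Peaks of trimethylated histone H3 lysine 4 (H3K4me3) that do not depend on PRDM9 and lie far from any annotated promoter were examined in testis chromatin of (B6xCAST)F1-Prdm9 Hum/Cast mice. A narrow peak was included when it lay on an autosome, when its centre fell inside the authors' list of PRDM9-independent regions, and when it was more than 5 kb from every transcript start of any biotype in GENCODE M21 (mm10). The rule used positions only, though the listed regions are themselves H3K4me3 peak regions called in earlier mice. It gave 12700 distal PRDM9-independent peaks of 101978 narrow peaks in all. They made up part of the 38191 autosomal PRDM9-independent peaks, of which the other 25491 lay within 5 kb of a start and are called start peaks here. The 42187 autosomal peaks outside the listed regions and more than 5 kb from a start, called distal PRDM9-dependent peaks, served as a second comparison.

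All libraries come from 1 condition. The mice carried the Prdm9 Hum allele, with the zinc-finger array of the human protein, on a C57BL/6J background, and the Prdm9 Cast allele from a CAST/EiJ father. At 23 weeks of age their testes gave 2 H3K4me3 ChIP libraries and 1 input library. By the methods, 2 littermates gave 1 testis each, but the design text names a single male, so the spread between the replicates may be technical. Whole testis holds all germ cell stages and somatic cells, and fewer cells of a type cannot be told apart from less mark per cell. No sample without Prdm9 was analysed here, and PRDM9 independence rests on the authors' regions, which they defined as peak regions shared between earlier mice with different Prdm9 alleles.

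H3K4me3 is placed at active and poised promoters by SET1 and MLL methyltransferases, which are drawn to unmethylated CpG islands. In meiosis PRDM9 adds the same mark at its binding sites, where recombination starts. Away from promoters a weaker H3K4me3 signal is known at some enhancers, at starts that annotations miss and at CpG islands inside or between genes.

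Summed over all peak centres, the ChIP libraries held 17621116 fragments (replicate 1) and 19094837 fragments (replicate 2), and the input held 1250138. Peaks within 1 kb of a start were found for 14 of 14 germ cell genes, 5 of 6 Sertoli cell genes, 5 of 5 Leydig cell genes and 5 of 6 genes of other testis cells. The median of the highest enrichment per gene was 38.5 for the germ cell genes, 9.69 for Sertoli, 10.3 for Leydig and 4.13 for other testis cells. Of 10 genes typical of other tissues, 1 had such a peak, with an enrichment of 1.46. Enrichment is the authors' estimate of ChIP signal over local background from both replicates together, on a linear scale on which 0 stands for no enrichment.

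The sequences of the strongest distal PRDM9-independent peaks show the range from CpG-rich to CpG-poor DNA within the class. Each line below gives 201 bases of the plus strand of GRCm38.p6, which is the mm10 build and the C57BL/6J sequence, centred on the peak, with every CpG in capitals. The CAST/EiJ chromosome can differ from it. The first 3 are from the 4 strongest peaks that were CpG-island-like, meaning a GC content of at least 50% and a CpG observed over expected ratio of at least 0.6 in 500 bp, among peaks with at least 5 input fragments and both replicates above the input.
peak nearest to Tmem44 (chr16:30510724-30510924): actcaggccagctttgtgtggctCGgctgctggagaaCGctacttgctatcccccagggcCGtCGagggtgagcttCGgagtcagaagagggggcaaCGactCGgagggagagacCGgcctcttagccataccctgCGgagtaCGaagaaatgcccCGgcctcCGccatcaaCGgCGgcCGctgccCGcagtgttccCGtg
peak nearest to Gm40466 (chr8:19980209-19980409): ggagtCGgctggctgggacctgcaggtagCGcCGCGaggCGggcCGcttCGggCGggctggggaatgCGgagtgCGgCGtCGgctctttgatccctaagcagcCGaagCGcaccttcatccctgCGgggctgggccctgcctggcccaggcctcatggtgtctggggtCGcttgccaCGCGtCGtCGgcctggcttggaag
peak nearest to Gm13998 and Mga (chr2:119872829-119873029): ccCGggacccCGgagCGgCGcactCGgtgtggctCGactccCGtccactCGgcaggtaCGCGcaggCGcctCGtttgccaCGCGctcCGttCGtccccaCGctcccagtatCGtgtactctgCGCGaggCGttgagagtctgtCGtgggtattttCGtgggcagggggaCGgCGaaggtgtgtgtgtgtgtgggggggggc

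The next 4 are the strongest peaks chosen in the same way that were not CpG-island-like, and they are shown for contrast.
peak nearest to Gm45335 and Irx5 (chr8:92189640-92189840): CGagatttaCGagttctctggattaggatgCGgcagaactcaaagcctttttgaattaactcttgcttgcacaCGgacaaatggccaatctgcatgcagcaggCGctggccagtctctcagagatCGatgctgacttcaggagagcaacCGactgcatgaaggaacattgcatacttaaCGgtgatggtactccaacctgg
peak nearest to Pom121 (chr5:135404584-135404784): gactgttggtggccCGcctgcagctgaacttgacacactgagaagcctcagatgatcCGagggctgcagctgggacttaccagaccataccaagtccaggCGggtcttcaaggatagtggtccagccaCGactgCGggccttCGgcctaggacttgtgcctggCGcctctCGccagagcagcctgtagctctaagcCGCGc
peak nearest to Gm13506 and Ppp6c (chr2:39420809-39421009): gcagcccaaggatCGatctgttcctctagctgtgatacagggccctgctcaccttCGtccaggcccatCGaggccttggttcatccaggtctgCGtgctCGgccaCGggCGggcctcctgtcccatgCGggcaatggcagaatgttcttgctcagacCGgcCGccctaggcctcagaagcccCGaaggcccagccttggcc
peak nearest to Gm48931 and Tpt1 (chr14:75833638-75833838): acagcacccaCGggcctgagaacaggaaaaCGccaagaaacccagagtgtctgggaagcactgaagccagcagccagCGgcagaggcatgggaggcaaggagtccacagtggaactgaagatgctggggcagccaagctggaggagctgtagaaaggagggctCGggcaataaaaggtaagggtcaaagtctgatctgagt

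In the 500 bp around the centre, the 3 CpG-island-like peaks held 30, 49 and 63 CpGs, in the order printed. The other 4 held 15, 20, 28 and 12. Their enrichments overlapped: the peaks of the first group had 114, 111 and 88.1, and those of the second had 110.0, 88.0, 82.2 and 81.6.

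Distal PRDM9-independent peaks were weaker and narrower than start peaks and stronger and wider than distal PRDM9-dependent peaks. Median coverage at the centre was 52 fragments for replicate 1 and 61 for replicate 2, with 8 in the input. Start peaks had medians of 235, 262 and 15 fragments, and distal PRDM9-dependent peaks had 15, 17 and 6. The median enrichment was 6.67 in distal PRDM9-independent peaks (quartiles 3.93 and 11.9), 17.6 in start peaks (quartiles 7.62 and 45.6) and 2.81 in distal PRDM9-dependent peaks (quartiles 1.66 and 5.10). The ranges overlapped, since 1599 of the 12700 peaks (12.6%, exact 95% binomial interval 12.02 to 13.18%) exceeded the median start peak, and 10960 (86.3%) exceeded the median distal PRDM9-dependent peak.

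**Figure D1:**
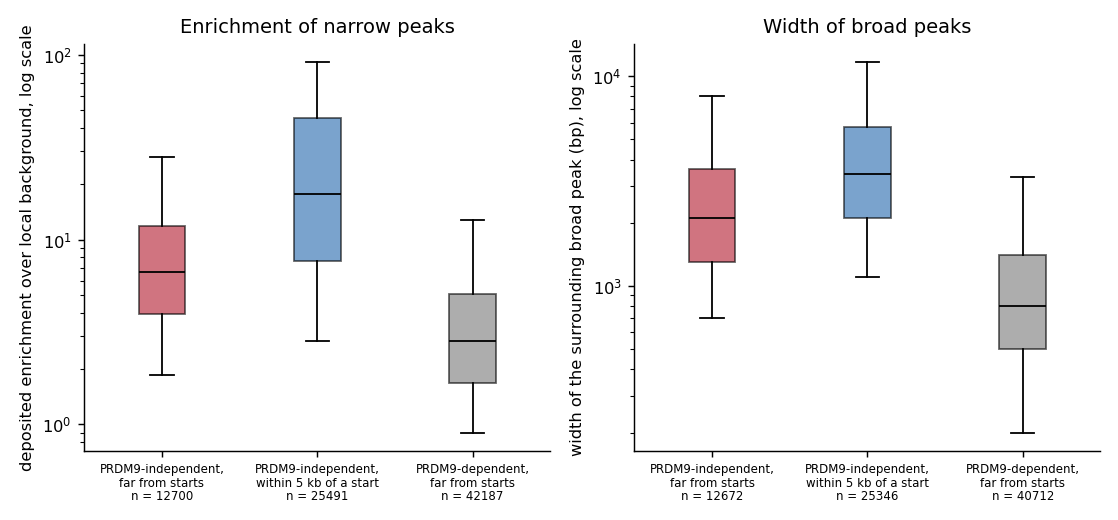
Deposited enrichment of narrow peaks (left) and width of the surrounding broad peak in bp (right), both on log scales, for PRDM9-independent peaks far from starts, PRDM9-independent peaks within 5 kb of a start, and PRDM9-dependent peaks far from starts. Boxes give the median and quartiles and whiskers the 5th and 95th percentiles over peaks; the distal PRDM9-independent peaks lie between the other classes, with medians of 6.67 and 2100 bp.

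On the log2 scale the median of distal PRDM9-independent peaks minus that of start peaks was -1.40, a 2.64-fold difference. It was -1.43 with replicate 1 alone over the input and -1.39 with replicate 2 alone (SD 0.03, n = 2), and it was below 0 on 19 of 19 autosomes, with a range of -1.66 to -1.12. Against distal PRDM9-dependent peaks the difference was 1.25 (2.37-fold), with 1.25 from replicate 1 and 1.20 from replicate 2 (SD 0.03, n = 2), and it was above 0 on 19 of 19 autosomes (0.99 to 1.47). Both differences were larger than the spread between replicates. That spread leaves out the noise of the input, since both replicates were set over the same input library. With 2 ChIP libraries of 1 condition, no test over samples was possible. Peaks entered the file only below the authors' p cutoff of 1e-06, so weak peaks of every class are missing and the class medians hold for called peaks only. The PRDM9-independent regions had to be shared between earlier mice, and distal PRDM9-dependent peaks are those outside them. Strong or wide sites may enter such a list more readily. The part of this in the differences from distal PRDM9-dependent peaks, in enrichment and in width, was not tested.

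Most distal PRDM9-independent peaks were called with a wide margin. The deposited p-value was under 1e-10 for 12399 of the 12700 (97.6%), against 80.8% of all autosomal peaks, 99.3% of start peaks and 69.2% of distal PRDM9-dependent peaks. Both replicates exceeded the input at 12547 peaks (98.8%). The deposited enrichment was under 1 at 79 peaks, and both replicates were at or under the input at 11. At the other end, 1245 peaks had an enrichment over 20 and 148 over 50, but the median input at those 148 was 3 fragments, so their ratios are imprecise. Fragment counts carry counting error only in the intervals given here.

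Nearly all of these peaks lay in a broad peak. The 12672 that did occupied 11522 broad peaks, with a median width over peaks of 2100 bp (quartiles 1300 and 3600 bp). Start peaks had a median of 3400 bp and distal PRDM9-dependent peaks one of 800 bp. Of the 12700 peaks, 286 (2.25%) shared a broad peak with a transcript start, against 87.9% of start peaks. These 286 had a median enrichment of 7.81 and a median broad peak width of 12100 bp, against 6.66 and 2100 bp for the other 12414. Broad peaks with 3 or more distal PRDM9-independent peaks numbered 147, and the 467 peaks in them had a median enrichment of 9.18. It was 6.46 for the 10545 peaks that were the only peak of the class in their broad peak. Narrow peaks of other classes were not counted for this split.

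The replicates agreed closely at these peaks. An exact binomial test of the fragments of replicate 1 against replicate 2, given the library totals, with Benjamini-Hochberg adjustment over all 101978 narrow peaks, called 27 of the 12700 at an adjusted p under 0.05. Coverage was higher in replicate 1 at 8 of them (0.063%), against 0.436% of all peaks. Coverage was higher in replicate 2 at 19 (0.15%), against 0.368% of all peaks. Unadjusted p-values were under 0.05 at 1079 peaks (8.50%), against 9.15% of all autosomal peaks, 16.8% of start peaks and 6.05% of distal PRDM9-dependent peaks. Across the 12700 peaks, which are not independent replicates, Spearman's rho between the replicates was 0.968, compared with 0.996 across start peaks and 0.840 across distal PRDM9-dependent peaks, which differ in depth. The squared difference averaged 1.37 times that of counting noise, against 2.37 times in start peaks and 1.18 times in distal PRDM9-dependent peaks.

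**Figure D2:**
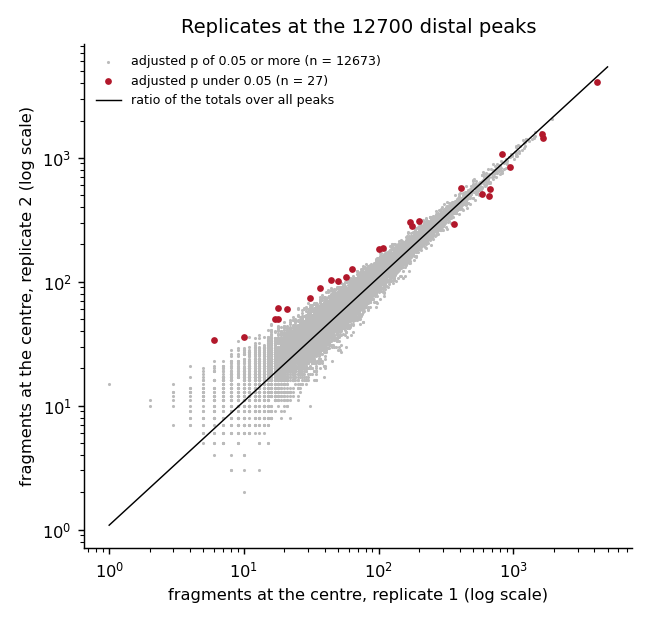
Fragments at the peak centre in replicate 1 (horizontal) and replicate 2 (vertical), both on log scales, for each of the 12700 distal PRDM9-independent peaks. The line is the ratio of the library totals over all peaks, and the 27 red points are the peaks with an adjusted p under 0.05.

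The 27 called peaks had a median enrichment of 19.9, against 6.67 for the other 12673. The 3 of lowest p-value in each direction are given here. Near 4931408D14Rik, 27099 bp from the start of Ide (insulin-degrading enzyme), the peak at chr19:37263779 had 662 fragments in replicate 1 and 494 in replicate 2, with 15 in the input (adjusted p = 5.7e-07, exact binomial). A coding exon of Apba1, which encodes an adaptor protein of synaptic vesicle release, held a peak with 1653 and 1439 fragments and 35 in the input (adjusted p = 1.8e-06, exact binomial). A coding exon of Zfp771, a zinc-finger gene, held one with 675 and 562 fragments and 19 in the input (adjusted p = 0.0015, exact binomial). In the other direction, a coding exon of Grasp held a peak with 171 fragments in replicate 1 and 306 in replicate 2 (input 21, adjusted p = 7.4e-05, exact binomial). An intron of Lgi1, whose product is a secreted neuronal protein, held one with 18 and 61 fragments (input 6, adjusted p = 0.0018, exact binomial), and an intron of Tbxas1, thromboxane synthase, one with 44 and 104 (input 7, adjusted p = 0.0025, exact binomial). All 6 stood above the input in both replicates.

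Distance from the nearest start ranged from 5003 to 533663 bp, with a median of 17454.5 bp. Enrichment varied little with it. The median was 6.69 for the 3395 peaks at 5 to 10 kb, 6.87 for the 3653 at 10 to 20 kb, 6.73 for the 3532 at 20 to 50 kb, 6.07 for the 1425 at 50 to 100 kb and 6.55 for the 695 farther than 100 kb. The CpG-island-like share took the values 12.2, 9.66, 8.13, 4.42 and 3.17% over the same steps, while median input coverage took the values 9, 9, 8, 8 and 6 fragments. The share was thus lower at every farther step, and the enrichment was not.

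**Figure D3:**
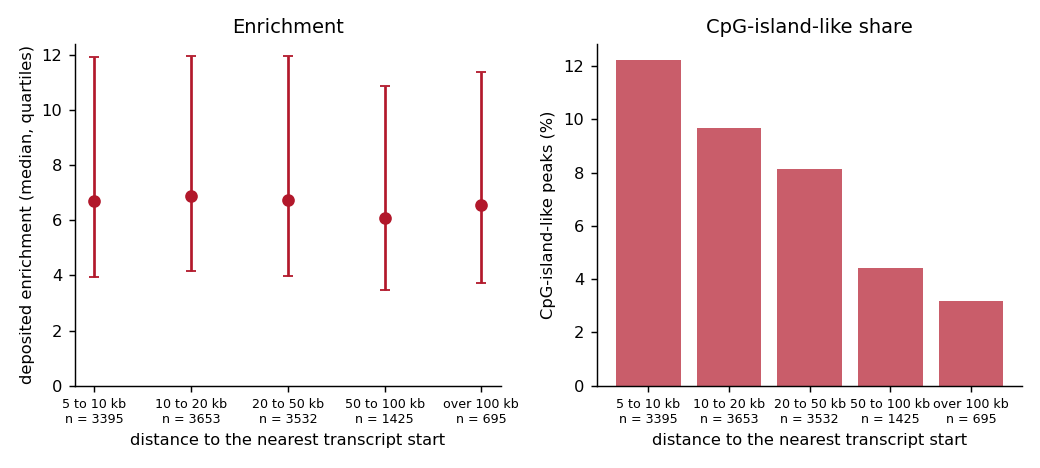
Distal PRDM9-independent peaks by distance to the nearest transcript start. The left panel gives the median deposited enrichment with its quartiles, which lies between 6.07 and 6.87 at every step; the right panel gives the percentage of CpG-island-like peaks, from 12.2% at 5 to 10 kb to 3.17% beyond 100 kb.

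Next to the 5 kb limit, the 3 peaks inside the class had lower enrichments than the 3 outside it, which is a description with no test. Just inside it, the peak in a coding exon of Pglyrp2 (a peptidoglycan amidase) had 56 and 63 ChIP fragments and 22 in the input, 1 in an intron of Fam198b had 45 and 56 with 10 in the input, and 1 near Gm12969 had 34 and 42 with 6 in the input. All 3 lay 5003 bp from a start and had enrichments of 2.41, 4.62 and 5.83. Just outside the class, at 4998, 4996 and 4994 bp, the peaks in an intron of Wapl (a cohesin release factor), in an intron of Gm14114 and in a non-coding exon part of Smtnl1 had enrichments of 17.3, 7.24 and 10.4. The first of these rested on 1 input fragment, with 14 and 23 ChIP fragments, and its summed ratio of 37.0 has an exact 95% interval of 6.24 to 1500. Here and below, a summed ratio is the fragments of both ChIP replicates together over those of the input. It is not scaled for depth, so neither it nor its interval is on the scale of the deposited enrichment.

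Of the 5 peaks farthest from any start, 4 had an enrichment under the class median of 6.67 and 1 lay above it. The farthest, on chr11 at 13531329, lay 533663 bp from Gm12004 and had 6 and 9 ChIP fragments with 5 in the input (enrichment 1.28). A pair in an intron of Gpc6, which encodes a glypican, lay 485780 and 481445 bp from Mir6239, with 33 and 32 fragments over an input of 13 (enrichment 2.22) and with 64 and 71 over an input of 3 (enrichment 21.1, summed ratio 45.0 with an exact 95% interval of 15.1 to 221). The peak 482507 bp from Gm5263 had 19 and 27 fragments with 6 in the input (enrichment 3.48), and the one 447090 bp from Gm18183 had 13 and 11 with 3 in the input (enrichment 3.63, summed ratio 8.00 with an interval of 2.43 to 41.5). In each of the 5, both replicates exceeded the input, by a single fragment in the lowest.

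Coding exons held a larger share of these peaks than of the sequence they could lie in. A coding exon held the centre of 783 of the 12700 peaks (6.17%, exact 95% interval 5.75 to 6.60%), whereas coding exons made up 0.740% of the 1825 Mb of autosomal sequence more than 5 kb from every start, which is 76.2% of non-N autosomal sequence. That is 58.0 peaks per Mb, compared with 10.2 in other exon sequence, 6.23 in introns and 6.73 outside genes. Among distal PRDM9-dependent peaks, 2.98% (2.81 to 3.14%) lay in coding exons. Coding exon peaks had median coverages of 101 and 116 ChIP fragments and 16 input fragments, above the class medians of 52, 61 and 8 in the input as well as in the ChIP, and their median enrichment of 6.98 was close to 6.39 in introns and 6.80 outside genes. They were CpG-island-like in 37.8% of cases, compared with 5.25% in introns. CpG content, input coverage and coding sequence moved together here, and their separate parts in the result were not tested.

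In all, 5651 peaks (44.5%, exact 95% interval 43.6 to 45.4%) lay inside a gene body, 4909 of them in a protein-coding gene. Start peaks were inside a gene body in 87.8% of cases and distal PRDM9-dependent peaks in 48.2%. The nearest start belonged to a protein-coding gene for 6070 peaks, to a processed pseudogene for 2081 and to a lincRNA for 1838, and the median enrichment was 6.77, 6.40 and 6.58 in these groups. By chromosome, the density had a median of 7.11 peaks per Mb of sequence far from starts, from 5.52 on chromosome 3 to 8.83 on chromosome 11, and the median enrichment ran from 5.83 on chromosome 12 to 7.48 on chromosome 15.

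Low CpG content set the class apart from start peaks. CpG-island-like sequence was found at 1140 of the 12700 (8.98%, exact 95% interval 8.48 to 9.49%), against 15.8% of all autosomal peaks, 51.6% of start peaks and 1.51% of distal PRDM9-dependent peaks. The CpG-island-like peaks were stronger than the rest of the class, with a median enrichment of 9.27 (137 and 151 ChIP fragments, 15 in the input) against 6.46 (49 and 57 ChIP fragments, 8 in the input). Their broad peaks were narrower, at a median of 1700 bp against 2200 bp.

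Enrichment remained below that of start peaks at every CpG count. With 0 to 4 CpGs in 500 bp, the median was 6.19 in 2933 distal PRDM9-independent peaks, 9.01 in 2689 start peaks and 3.48 in 15041 distal PRDM9-dependent peaks. With 10 to 19 CpGs it was 6.67, 8.64 and 2.35. With 20 to 39 CpGs it was 7.24, 19.97 and 2.57, and with 40 or more it was 12.9 in 338 peaks, 43.8 in 8770 start peaks and 2.77 in 22 distal PRDM9-dependent peaks. The gap to start peaks was thus widest among CpG-rich peaks, where the upper quartile of the distal PRDM9-independent peaks (21.4) met the lower quartile of start peaks (21.3). Peaks are not replicates, and these medians are a description.

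**Figure D4:**
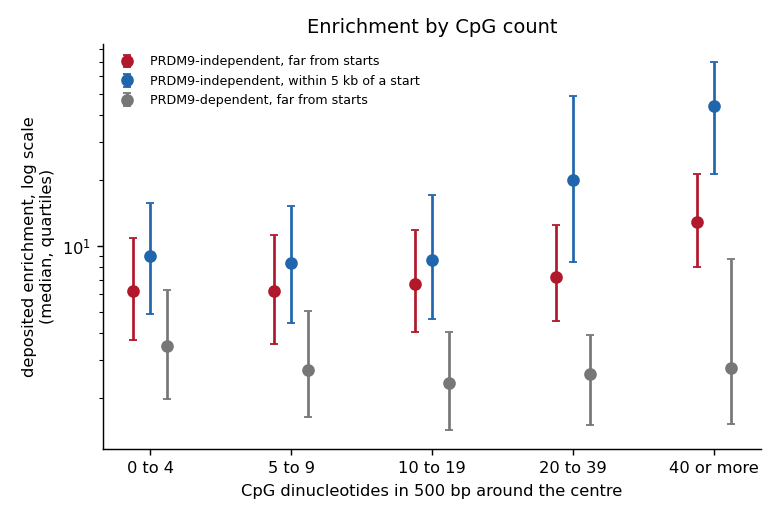
Median deposited enrichment (points, log scale) and quartiles (bars) by the number of CpG dinucleotides in 500 bp around the centre, for PRDM9-independent peaks far from starts, PRDM9-independent peaks within 5 kb of a start, and PRDM9-dependent peaks far from starts. At 40 or more CpGs the medians are 12.9, 43.8 and 2.77.

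Short sequence motifs of factors known to bind promoters or insulators were counted within 150 bp of the centre on both strands. ETS factors bind CCGGAAGT, which stood at 305 of the 12700 peaks (2.40%, exact 95% interval 2.14 to 2.68%), 1.81% of start peaks and 0.839% of distal PRDM9-dependent peaks (0.754 to 0.931%), and at 1.28% of all autosomal peaks. NRF1 binds CGCATGCG, found at 187 (1.47%, 1.27 to 1.70%), against 0.706% of start peaks, 0.749% of distal PRDM9-dependent peaks and 0.788% of all autosomal peaks. The YY1 word AGATGGCG, added after the sequences had been searched, stood at 458 (3.61%, 3.29 to 3.95%), against 2.17, 2.00 and 2.10% of the same classes. The intervals of these 3 words did not overlap those of distal PRDM9-dependent peaks, at 150 bp or at 300 bp. All 3 words hold a CpG, however. The median number of CpGs in 500 bp was 10 in distal PRDM9-independent peaks and 6 in distal PRDM9-dependent peaks. The part of CpG content in these shares was not tested. Against start peaks the window mattered. Within 300 bp the ETS word stood at 3.99% of the distal PRDM9-independent peaks and 5.19% of start peaks, so that the order turned, and the NRF1 word at 2.28% and 2.13%, with overlapping intervals. The YY1 word remained higher in the distal class, at 5.30% and 4.18%. The median enrichment of peaks with the ETS word was 7.95, with the NRF1 word 6.40 and with the YY1 word 5.16, beside 6.67 for the whole class.

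Other words were counted in the same way. The GC box GGGCGG, bound by SP1 and its relatives, was found at 15.9% of distal PRDM9-independent peaks, 41.2% of start peaks, 9.25% of distal PRDM9-dependent peaks and 18.9% of all autosomal peaks. Among CpG-island-like peaks it stood at 43.7% of the distal and 63.5% of the start peaks. The spermatid regulator CREM and its relatives bind TGACGTCA, which stood at 88 peaks (0.693%, 0.556 to 0.853%), compared with 0.612, 0.403 (0.345 to 0.468%) and 0.498%. RFX factors bind GTTNCCATG, found at 198 (1.56%), compared with 1.16, 1.64 and 1.48%. MYB factors, among them the meiotic regulator MYBL1, bind CAGTTG, found at 1879 (14.8%), compared with 11.0, 14.5 and 13.6%. The intervals of the RFX and MYB words overlapped those of distal PRDM9-dependent peaks. Within 300 bp the CRE word TGACGTCA stood at 1.38% of the distal PRDM9-independent peaks and 2.02% of start peaks, the reverse of the order at 150 bp, and the RFX word at 4.07% against 3.36% of distal PRDM9-dependent peaks, with intervals that no longer overlapped. The GC box and the CRE word hold a CpG as well, and the RFX and MYB words do not. A match is a sequence only and says nothing of binding.

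The 12-base core of CTCF, an insulator and chromatin loop protein, was found at 66 of the 12700 peaks (0.520%, exact 95% interval 0.402 to 0.661%). It was found at 0.282% (0.221 to 0.356%) of start peaks, 0.410% (0.351 to 0.476%) of distal PRDM9-dependent peaks and 0.412% of all autosomal peaks, and the intervals of both distal classes overlapped. Within 300 bp they did not, with 1.68% (1.46 to 1.92%) of distal PRDM9-independent and 1.27% (1.16 to 1.38%) of distal PRDM9-dependent peaks. Peaks with the core had a median enrichment of 7.21. The 3 strongest are shown as the core in capitals with 24 bases on both sides on the plus strand. Their peak centres, at chr5:142367599, chr8:124775882 and chr8:106561316, lie outside the printed stretches.
peak nearest to Foxk1 (chr5:142367706-142367765): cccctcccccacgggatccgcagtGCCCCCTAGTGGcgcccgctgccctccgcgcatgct
peak nearest to Gm45856 (chr8:124775923-124775982): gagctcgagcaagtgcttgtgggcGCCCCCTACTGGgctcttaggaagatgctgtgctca
peak nearest to Gm10073 (chr8:106561230-106561289): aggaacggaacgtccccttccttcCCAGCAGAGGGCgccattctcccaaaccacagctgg

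In the first and the second the core reads on the minus strand, and in the third on the plus strand. The first, 33898 bp from the start of Foxk1 (a forkhead transcription factor), had 900 and 890 ChIP fragments and 19 input fragments. The second had 274 and 345 with 10 in the input and the third 381 and 377 with 14 in the input, and their enrichments were 44.2, 29.0 and 25.4.

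The strongest single peaks were as strong as many promoters. The strongest with at least 5 input fragments, at chr16:30510824, lay 30085 bp from the start of Tmem44 and had 938 and 1008 ChIP fragments against 8 in the input (enrichment 114). The peak at chr8:19980309, next to the pseudogene Gm40466, had 562 and 613 against 5 (enrichment 111). The peak at chr8:92189740 lay 17153 bp from the lincRNA Gm45335 and 167885 bp from Irx5, a homeobox regulator, with 504 and 666 against 5 (enrichment 110.0). Their sequences are among those printed above. Among the next, the peak near the pseudogene Gm13506 had 847 and 901 against 10 (enrichment 82.2), the peak near Tpt1, which encodes a translationally controlled tumour protein, had 482 and 559 against 6 (enrichment 81.6), and the peak 10977 bp from the nearest start of Fos, a subunit of the transcription factor AP-1, had 1201 and 1318 against 16 (enrichment 74.0). In all of these both replicates stood far above the input.

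Of the 10 strongest, 4 lay within 1 kb of a transcript start in RefSeq, which the rule did not use. A RefSeq start of Mga, a transcription factor that pairs with MAX, lies 416 bp from the peak at chr2:119872929, with 1638 and 1548 against 17 (enrichment 88.1), whereas its nearest GENCODE start is 24299 bp away. The replicates of this peak differed, with higher scaled coverage in replicate 1 (adjusted p = 0.021, exact binomial). Pom121, a nuclear pore protein, has a RefSeq start 157 bp from a peak of 607 and 704 against 7 (enrichment 88.0). In an intron of Nfia, a nuclear factor I transcription factor, the peak with 503 and 646 against 7 (enrichment 77.1) lay 335 bp from the long non-coding RNA Gm19417.

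Across the class, 1236 of the 12700 peaks (9.73%, exact 95% interval 9.22 to 10.3%) had a RefSeq start within 1 kb, against 2.35% (2.21 to 2.50%) of distal PRDM9-dependent peaks. The start was that of a long non-coding RNA in 935 cases and of an mRNA in 270. These 1236 peaks had a median enrichment of 8.44, with 72 and 83.5 ChIP fragments and 9 in the input, and a median broad peak width of 2800 bp. The other 11464 had 6.46, with 51 and 60 ChIP fragments and 8 in the input, and 2000 bp. RefSeq starts within 1 kb were about as common near as far from GENCODE starts, at 9.40% for 5 to 10 kb and 9.21% beyond 100 kb. Further examples, picked by enrichment after the values were seen, were Zfp33b, a zinc-finger gene with an mRNA start 131 bp from a peak of 1045 and 1217 fragments against 15 (enrichment 70.9), and A930007A09Rik, 194 bp from one of 1220 and 1331 against 17 (enrichment 70.5).

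A tandem array on chromosome 6 held 12 of the peaks within 112 kb, between Ezh2 and Pdia4, which encodes a protein disulfide isomerase. The array was noticed after the values were seen. All 12 were CpG-island-like, with GC contents of 61.2 to 68.0%, and most neighbours lay 4300 to 5296 bp apart. Sequence was shared among them: of the 31-base words in 621 bp around each centre, between 50.3 and 100% (median 97.2%) also occurred around another peak of the class. The peak nearest to its left end lies 447 bp from Rn4.5s, a 4.5S RNA gene in RefSeq. The 201 bases at the peak of highest coverage, with CpGs in capitals, show the CpG-free repeat at its centre.
peak nearest to Gm25283, tandem array (chr6:47672795-47672995): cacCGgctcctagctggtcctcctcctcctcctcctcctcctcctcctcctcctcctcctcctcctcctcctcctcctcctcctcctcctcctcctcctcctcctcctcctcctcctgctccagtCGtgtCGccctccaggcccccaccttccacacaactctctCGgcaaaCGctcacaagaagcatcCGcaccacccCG

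Coverage differed 53.3-fold in replicate 1 between the copies, but the enrichment did not follow it. The highest copy, at chr6:47672895, had 4160 and 4124 ChIP fragments and 195 in the input (enrichment 19.9). The lowest, at chr6:47668505, had 78 and 77 with 6 in the input (enrichment 12.03). Input coverage moved with ChIP coverage, and 10 of the 12 had enrichments between 10.9 and 25.1. The exceptions, at 113 and 127, each rested on 1 input fragment, with 118 and 122 ChIP fragments in the first (summed ratio 240, exact 95% interval 42.7 to 9518) and 128 and 142 in the second (summed ratio 270.0, 48.1 to 10703). Summed over the array, there were 7924 and 7935 ChIP fragments against 404 in the input, a ratio of 19.6 in both replicates. Reads of near-identical copies may be placed on any of them, so the values of a single copy are uncertain.

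**Figure D5:**
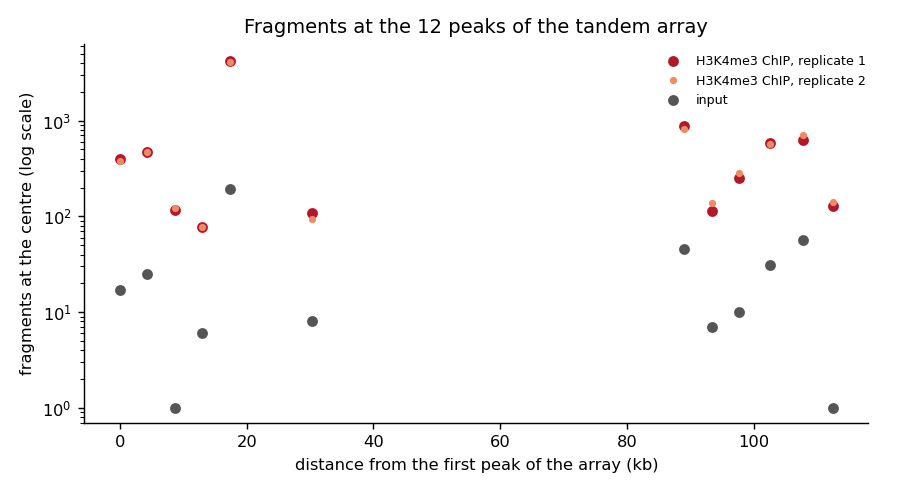
Fragments at the centre (log scale) in both H3K4me3 ChIP replicates and the input for the 12 peaks of the tandem array on chromosome 6, by distance in kb from its first peak. The replicates coincide at each copy, and the input rises and falls with them except at 2 copies with 1 input fragment.

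Over the whole class, 224 peaks (1.76%) shared at least 50% of their words with another. They had a median of 92.3% soft-masked sequence and a median enrichment of 5.40 beside 6.69 for the others. The other families with 3 or more members had 8 peaks on 6 chromosomes (enrichment 1.96 to 22.0) and 4 peaks on chromosome 14 (enrichment 9.19 to 30.5, input 0 to 5). Peaks with at least 50% soft-masked sequence numbered 1988 (15.7%), close to 14.7% of distal PRDM9-dependent peaks and above 3.84% of start peaks, and their median enrichment was 5.05 against 6.99 for the rest.

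The peaks of highest input showed the limit of these ratios. At chr16:17222332, 11240 bp from Hic2, a transcriptional repressor gene, there were 429 and 430 ChIP fragments against 511 in the input (enrichment 0.658). In an intron of Upf2, a nonsense-mediated decay factor, there were 173 and 193 against 255 (enrichment 0.543). At chr19:61199739 there were 1434 and 1468 against 257 (enrichment 5.18). In the first and second pairs each ChIP library held fewer fragments than the input. The library totals given above are sums over peak centres, where ChIP is enriched, and do not give sequencing depth. Input coverage was over 50 fragments at 13 peaks of the class.

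The widest broad peaks that held a distal PRDM9-independent peak were far wider than the class median of 2100 bp. The widest, 207800 bp on chromosome 17, took in major histocompatibility genes of the H2-Q group. Its strongest distal peak, 9767 bp from H2-Q10, had 115 and 117 ChIP fragments against 6 in the input (enrichment 18.1). Broad peaks over Fbxw11, an F-box protein of ubiquitin ligases, over Ank, a pyrophosphate transporter, and over Spop, a ubiquitin ligase adaptor, were 101700, 91700 and 79200 bp wide. Their strongest distal peaks lay in introns, with 111 and 116 against 14 (enrichment 7.50), 109 and 153 against 13 (9.36) and 142 and 157 against 16 (8.67). The narrowest of the 5, 77900 bp near 4933413J09Rik, had 95 and 94 against 9 (9.75). All 5 lay above the class median of 6.67 in enrichment and none was among the 10 strongest. Each was picked as the strongest of its broad peak, however, which by itself favours a value above a median over all peaks. In all, 206 broad peaks of at least 10 kb held 348 of the peaks.

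Genes of 10 lists were searched for a peak inside the gene body or nearest to one of their starts. Among developmental regulators 51 of 63 genes (81.0%) had at least 1, among spermatogonial genes 13 of 22 (59.1%), among Sertoli cell genes 10 of 18 (55.6%), among genes of other testis somatic cells 7 of 13 (53.8%) and among imprinted genes 16 of 39 (41.0%). Leydig cell genes had 4 of 12 (33.3%) and chromatin and housekeeping genes 9 of 27 (33.3%). The lowest shares were those of spermatid genes, with 6 of 26 (23.1%), meiosis genes, with 5 of 28 (17.9%), and genes of other tissues, with 3 of 18 (16.7%). Of all 20780 autosomal protein-coding genes, 6687 (32.2%) had at least 1. Only 33 of the 39 imprinted genes were protein-coding. By the nearest start alone, 12 of these 33 (36.4%) had a peak, against 29.6% of all protein-coding genes. The densities below count protein-coding genes only.

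The space around the genes differed between the lists as well. The sequence nearest to a gene's starts and more than 5 kb from them had a median of 221 kb for developmental regulators, 107 kb for spermatogonial genes and 65.4 kb for Sertoli cell genes, but 20.3 kb for meiosis genes and 6.08 kb for spermatid genes. It was 27.1 kb for all protein-coding genes. Per Mb of that sequence, developmental regulators had 6.99 peaks, against 6.02 for all protein-coding genes. The density was 12.6 for chromatin and housekeeping genes, 12.4 for spermatogonial, 10.5 for Sertoli cell, 9.75 for Leydig cell, 7.44 for other testis somatic, 6.46 for other-tissue, 5.79 for meiosis, 4.38 for imprinted and 4.34 for spermatid genes. Of the 18 peaks behind the value for chromatin and housekeeping genes, 6 belong to the tandem array and were counted for Ezh2. Over all protein-coding genes the sequence used here came to 2111 Mb, more than the 1825 Mb in which a peak of the class could lie. How the excess was spread over the lists was not tested. On this measure the high share of developmental regulators was near the background. These counts rest on few genes per list and carry no test, and nearness does not assign a peak to a gene. Below, near a gene means only that it had the nearest start of a protein-coding transcript, at up to 833908 bp among the peaks named. Starts of other transcripts, also those of protein-coding genes, may lie nearer.

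Near developmental regulators, the highest deposited enrichment was at chr2:116179981, nearest among protein-coding genes to Meis2, a homeobox gene. It had 116 and 146 ChIP fragments against 1 in the input (enrichment 123), and the summed ratio of 262 has an exact 95% interval of 46.6 to 10387. The peak nearest to Irx5 is given above. Near Sox1, a neural transcription factor, a CpG-island-like peak had 305 and 379 against 5 (enrichment 64.3). Several of these genes had groups of peaks: Sox2, a pluripotency and neural factor, had 9 over 633 kb (enrichment 1.38 to 16.2), Msx1, a homeobox gene of craniofacial development, had 8 over 125 kb (3.08 to 47.9, the highest at 27 and 24 ChIP fragments with 0 in the input), and Pax2, a regulator of kidney development, had 7 over 80.5 kb (3.93 to 21.5), of which 6 were CpG-island-like. Runx2, the osteoblast regulator, had 5 with a median enrichment of only 1.99. Both replicates exceeded the input at every peak of these 4 groups.

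Near spermatogonial genes, Id4, a marker of spermatogonial stem cells, had 7 peaks over 365 kb with enrichments of 5.36 to 41.9. The highest lay 174313 bp from Id4 and had 176 and 181 ChIP fragments against 4 in the input. Foxo1, needed for spermatogonial stem cell maintenance, had 9 over 431 kb (4.73 to 8.94). Eomes, a T-box factor, had 6 (1.75 to 38.9), the highest with 79 and 87 against 2, a summed ratio of 83.0 with an exact 95% interval of 22.6 to 691. Near Lhx1, a LIM homeobox gene, a CpG-island-like peak had 450 and 527 against 16 (enrichment 28.6).

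Somatic genes of the testis were represented as well. For Fshr, the follicle-stimulating hormone receptor of Sertoli cells, the 1 peak lay 193172 bp away. It had 188 and 179 ChIP fragments against 4 in the input (enrichment 43.1). Kitl, the KIT ligand, had 6 (2.34 to 23.6), the highest with 49 and 52 against 2, a summed ratio of 50.5 (exact 95% interval 13.6 to 423). Sox9, a testis-determining factor of Sertoli cells, had 9 spread over 1010 kb (3.94 to 20.9). Near Scarb1, the lipoprotein receptor that supplies cholesterol for steroids, the strongest of 4 had 171 and 204 against 10 (enrichment 17.5). Near Nr5a1, the regulator of steroidogenesis, the peak had 326 and 304 against 25 (enrichment 11.7), and in an intron of Por, the electron donor of cytochrome P450 enzymes, it had 26 and 30 against 10 (enrichment 2.50). Cdh5, the cadherin of endothelial cells, had 7 (3.30 to 42.2), the highest 298813 bp away with 240 and 299 against 6. Near Tcf21, a mesenchymal factor, the strongest of 2 had 29 and 35 against 3 (enrichment 9.91, summed ratio 21.3 with an interval of 6.98 to 106), and a coding exon of Pdgfra, a growth factor receptor of mesenchymal cells, held one of 101 and 152 against 13 (enrichment 9.03). Whether the signal came from germ or somatic cells was not tested, since the chromatin was from whole testis.

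For germ cell genes of meiosis and spermiogenesis, the strongest peaks of up to 3 genes per list are named, chosen by enrichment. They lay on both sides of the class median of 6.67, and being chosen so, they do not give the level of all peaks of these lists. An intron of Sycp1, the transverse filament of the synaptonemal complex, held the strongest near a meiosis gene, with 79 and 70 ChIP fragments against 6 in the input (enrichment 11.6). Of 2 peaks counted for Dmc1, the meiotic recombinase, the stronger had 56 and 75 against 8 (enrichment 7.58). It lay within Fam227a, 6565 bp from a start of that gene and 15099 bp from that of Dmc1. Near Prdm9 itself there was 1, with 20 and 20 against 3 (enrichment 6.14, summed ratio 13.3 with an exact 95% interval of 4.25 to 67.4). For Tnp1, a transition protein of spermatids, a peak 125095 bp away had 140 and 139 against 10 (enrichment 13.003). Near Catsper3, a sperm calcium channel subunit, a peak had 41 and 65 against 4 (12.3). A coding exon of Odf1, a protein of the sperm tail, held one of 94 and 127 against 10 (10.3). All 6 stood above the input in both replicates.

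Among imprinted genes, the sequence nearest to Snrpn, a splicing protein gene expressed from the paternal copy, had 7 peaks over 937 kb, with a median enrichment of 32.7 and a range of 6.69 to 85.3. They had 76 to 320 fragments in replicate 1 and 69 to 440 in replicate 2, but only 2 to 10 in the input. The highest lay 833908 bp from Snrpn and 12742 bp from Gm44643. It had 148 and 215 against 2, a summed ratio of 181.5 with an exact 95% interval of 49.9 to 1504. The peak near Dcn, which encodes decorin, had 127 and 153 against 6 (enrichment 21.8), and a coding exon of Peg3, a paternally expressed zinc-finger gene, held one of 41 and 48 against 2 (enrichment 20.8, summed ratio 44.5 with an interval of 11.96 to 373). Reads were not divided by parent here.

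Among chromatin and housekeeping genes, all 6 peaks counted for Ezh2, the methyltransferase of Polycomb, were those of the tandem array. Near Actb, cytoplasmic actin, the stronger of 2 had 71 and 82 ChIP fragments against 2 in the input (enrichment 35.9, summed ratio 76.5 with an exact 95% interval of 20.8 to 637), and near Rad21, a cohesin subunit, 92 and 142 against 6 (enrichment 18.2). For genes of other tissues the strongest were at 50 and 62 against 7 near Myod1, the muscle regulator (enrichment 7.40), 55 and 55 against 13 near Cdx2, an intestinal homeobox gene (3.85), and 35 and 30 against 15 near Ins2, insulin (1.91). The highest of these 3 lay below the highest of each testis list. A maximum depends on the number of peaks, however, which was 4 for this list and from 6 (spermatid) to 42 (spermatogonial) for the testis lists.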

How the data were processed

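H3K4me3 ChIP-seq of testis chromatin was analysed from the deposited peak files. Alignment to mm10 used BWA (submitters' notes) and Stampy (methods), followed by SAMtools and bedtools. The authors counted, without normalisation, the fragments of each library that overlap a peak centre, and these counts differ with library size. The deposited enrichment is the authors' maximum likelihood ratio over local background from both replicates, on a scale where 0 is no enrichment, imprecise where input is low. The deposited p-value is the authors' likelihood ratio test, with very small values written as 0. The narrow peaks lie under the authors' cutoff of 1e-06 with centres at least 1 kb apart, and broad peaks merge 100-bp bins under 1e-05. Because peaks were called on both replicates together, replicates were compared by coverage at shared peaks. Broad peaks and PRDM9-independent regions were deposited as positions.

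Members and lists were chosen with earlier results of these data known. Distances used GENCODE M21, sequences the RefSeq GRCm38.p6 genome, with RefSeq starts added afterwards. Single-replicate values are log2((coverage + 1)/(input + 1)). Replicates were tested per peak by a two-sided exact binomial test given library totals, adjusted by Benjamini-Hochberg over all narrow peaks. Intervals are exact 95% binomial intervals and cover counting error only. Library totals are sums over all peak centres, for each of the 3 libraries, and not sequencing depth. Peaks named were the 10 of highest enrichment with at least 5 input fragments and both replicates above the input, the 5 in the widest broad peaks, the 5 farthest from a start, the 3 on each side of the limit, the 3 of highest input, the 3 of lowest replicate p in each direction, and up to 3 genes per list, of which 1 peak is not reported here. The genes named per list were those whose peaks had the highest enrichment. Other names were chosen after their values were seen. The class rule, distances, windows, thresholds and replicates were varied. The binomial test and the distance search were also tested on simulated data. Statistics were run with statsmodels 0.14.6 and scipy 1.17.1, tables were handled with pandas 2.3.3 and numpy 2.4.6, and figures drawn with matplotlib 3.10.9, under Python 3.11.15.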

Additional observations from a re-analysis of the deposited data

Results flagged for a closer look

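The X chromosome was outside the comparisons of the report. It held 285 PRDM9-independent peaks more than 5 kb from every start, with a median enrichment of 13.05 (quartiles 6.30 and 24.1), which is above the level of 0 that stands for no enrichment and above the 6.67 of the autosomal peaks. Their median coverage was 37 and 46 ChIP fragments and 4 input fragments, against 52, 61 and 8 on autosomes. Start peaks of the X chromosome had a median enrichment of 24.6, against 17.6 on autosomes, and its distal PRDM9-dependent peaks one of 5.63, against 2.81. All 3 classes were thus higher on the X chromosome, with lower input coverage in each, and the part of input coverage in this was not tested.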

How the results depend on the processing

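The 2 log2 enrichment differences, to start peaks and to distal PRDM9-dependent peaks, kept their direction under each alternative tried. Of the 16 differences in the share of sequence words to these classes, 3 turned within 300 bp in place of 150 bp, a window compared after seeing the data. Against start peaks the ETS word came to -1.19 percentage points and the CRE word to -0.65, and against distal PRDM9-dependent peaks the RFX word to 0.71. With starts more than 2 kb away, the log2 difference to start peaks was -1.68 and to distal PRDM9-dependent peaks 1.29, the CpG-island-like share 10.3%, the share in gene bodies 49.3% and the median broad peak width 2300 bp. With starts more than 10 kb away, these were -1.19 for start peaks, 7.79% and 41.1%. With protein-coding starts only, the class held 19441 peaks, with -1.81, 1.38, 11.4%, 55.4% and 2300 bp. When 500 bp on both sides of the centre had to lie inside the region, it held 5563, with a median enrichment of 9.49, differences of -1.47 and 1.76, 45.5% in gene bodies and 3400 bp. At a deposited p under 1e-10 the difference to distal PRDM9-dependent peaks was 0.95. With at least 5 input fragments the differences were -1.56 and 1.53 and the CpG-island-like share 10.4%. Means in place of medians gave -1.36 and 1.19, and start peaks within 1 kb gave -1.89. Without 1 replicate, the difference to start peaks was -1.43 to -1.39 and that to distal PRDM9-dependent peaks 1.20 to 1.25. The CpG-island-like share was 13.1% in 300 bp, 4.37% in 1000 bp and 5.23% at a GC content of at least 55% with a ratio of at least 0.65. The CTCF core share was 0.236% within 100 bp, 1.68% within 300 bp and 4.20% with 1 mismatch, since larger windows and looser words hold more matches. At an adjusted p under 0.01, 11 replicate differences were called in place of 27. Scaling by the median ratio gave 17 higher in replicate 1 and 20 higher in replicate 2, in place of 8 and 19. Chosen after seeing the data, RefSeq starts also more than 5 kb away gave -1.45, 1.19, 45.4% in gene bodies and 2000 bp. The other alternatives stayed within the replicate spread or the intervals. The cause of these shifts was not tested where the setting itself does not give it. No paired analysis was possible because all ChIP libraries belong to 1 condition and the input has 1 library. Depth limits single peaks most: at a median of 8 input fragments, the ratio of a weak peak is imprecise.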
